A study of Mus musculus with 18 samples.

Results

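Estrogen receptor alpha, encoded by Esr1, and 7 genes widely used as readouts of its activity (Greb1, Pgr, Tiparp, Igfbp4, Ctsd, Celsr2 and Siah2) were followed across 3 populations of blood-forming cells from mice given tamoxifen or its vehicle. The 8 genes were taken by their symbol from a deposited table of 14419 genes, and all 8 had a row. The mice were adult male C57BL/6 animals, and freshly isolated bone marrow cells were sequenced as 18 libraries in 6 groups of 3, which the series' design text calls biological replicates. The groups were MPPs from mice given tamoxifen for 1 week, MPPs from mice given corn oil for 1 week, LT cells given tamoxifen for 2 weeks, LT cells given corn oil for 2 weeks, ST cells given tamoxifen for 2 weeks, and ST cells given corn oil for 2 weeks. The design text calls them MPPs, LT-HSCs and ST-HSCs, usual names for multipotent progenitors and for stem cells that rebuild blood over a long or a short term. No transgene or deletion is named in the labels. The sources used here do not give the gates of the sort, the dose, or how many mice stand behind a library. MPPs differ from LT and ST cells in duration as well as in population, and these cannot be told apart.

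Estrogen receptor alpha is a nuclear receptor that binds DNA as a dimer when it holds a ligand, at estrogen response elements made of inverted half-sites or through other factors such as AP-1 and Sp1. Tamoxifen is a selective estrogen receptor modulator, which blocks the receptor in breast and activates it in tissues such as uterus and bone. Estrogen receptor alpha is known to be present in haematopoietic stem and progenitor cells of the mouse, where estrogen acts on cell division. Esr2, which encodes estrogen receptor beta, and Gper1, which encodes the membrane estrogen receptor, had no row in the deposited table and were not analysed here.

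Values are normalised CPM, that is, reads scaled by 1 constant per library. The values of a library summed to between 900541 and 1149321, not to a shared total. Each value has the form of a whole number of reads plus 0.5, so that a gene with no read is listed slightly above 0. The values are not divided by transcript length, so the levels of different genes are not compared. The reads summed over the table numbered 2728800 to 5279821 per library. In LT cells given tamoxifen, library A stood apart from libraries B and C. Its reads differed from theirs by a chi-square of 27.1 and 26.1 per degree of freedom, against 3.28 between B and C and at most 10.6 between replicates of the other groups. Mitochondrial ribosomal RNA made up 25.5% of its reads, against 17.7% and 18.7% in B and C. The next highest share was in ST tamoxifen library A, at 24.4%, against 21.5% and 19.3% in ST tamoxifen libraries B and C. The results that LT tamoxifen library A moved in LT cells are therefore also given without that library. Of the marker lists of the sorted populations, the 12 long-term stem cell markers summed to 2341 to 2586 normalised CPM in LT cells given tamoxifen and 2992 to 3287 in LT cells given oil, to 1404 to 1529 in ST cells given tamoxifen and 1332 to 1776 in ST cells given oil, and to 1603 to 2167 in MPPs given tamoxifen and 2036 to 2225 in MPPs given oil. No marker of these lists was at 0 reads in any group.

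Greb1 and Ctsd are shown with sequence because Greb1 had the highest log2 fold change of the 8 genes in each tamoxifen comparison, and because Ctsd, which did not pass the test, had the most half-sites in a single window. RefSeq promoter windows, in the GRCm38.p6 build, were found for 7 of the 8 genes and held 9 starts, and the 250 bases before each start were searched on both strands. Capitals mark the half-site GGTCA or its reverse complement TGACC, and each line runs 5′ to 3′ on the gene's own strand and ends at the base before the start. The window of the first Greb1 start is chr12:16800887-16801136 on the minus strand and has 1 half-site, beginning 88 bases upstream. The window of the second Greb1 start, chr12:16757240-16757489 on the minus strand, has half-sites beginning 194 and 85 bases upstream. The window of the Ctsd start, chr7:142387828-142388077 on the minus strand, has half-sites beginning 241, 94 and 69 bases upstream.
Greb1 start 1: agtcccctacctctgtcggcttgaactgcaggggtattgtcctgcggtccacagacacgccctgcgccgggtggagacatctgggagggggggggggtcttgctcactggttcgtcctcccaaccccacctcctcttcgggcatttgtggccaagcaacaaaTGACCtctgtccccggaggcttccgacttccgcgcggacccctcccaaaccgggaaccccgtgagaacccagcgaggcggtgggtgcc
Greb1 start 2: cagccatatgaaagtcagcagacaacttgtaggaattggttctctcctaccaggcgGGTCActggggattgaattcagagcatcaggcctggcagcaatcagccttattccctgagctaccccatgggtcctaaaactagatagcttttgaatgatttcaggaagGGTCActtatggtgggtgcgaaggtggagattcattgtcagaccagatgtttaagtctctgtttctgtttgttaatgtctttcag
Ctsd start 1: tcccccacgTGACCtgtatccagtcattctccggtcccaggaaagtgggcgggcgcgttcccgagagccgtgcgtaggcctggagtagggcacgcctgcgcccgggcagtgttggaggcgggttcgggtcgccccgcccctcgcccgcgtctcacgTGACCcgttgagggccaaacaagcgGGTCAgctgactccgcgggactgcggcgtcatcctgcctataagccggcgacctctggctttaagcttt

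A half-site was present in 3 of the 9 windows, and 35.2% of 32851 RefSeq windows of the same length held one. The palindrome of GGTCA, 3 bases and TGACC was in none of the 9 windows and in 0.0639% of all windows. The aryl hydrocarbon receptor core GCGTG, which was in 28.2% of all windows, occurred once each before the first Greb1 start and the Tiparp, Ctsd and Celsr2 starts. The GC box GGGCGG, in 32.7% of all windows, occurred before the Pgr and Ctsd starts. The E-box CACGTG, in 6.02% of all windows, occurred before the Ctsd start, where both matches share 2 bases with a half-site. These matches describe letters in short windows, and enhancers farther away were not searched.

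Greb1, a coactivator of estrogen receptor alpha and among the most strongly estrogen-induced genes of breast cancer cells, was higher in every tamoxifen library than in any oil library of the same population, and passed the test in MPPs and ST cells. Its reads were few and nearly confined to those libraries: all 9 tamoxifen libraries had between 2 and 27 reads, 116 in all, while 2 of the 9 oil libraries had 2 reads each and the other 7 had none. Every gene of the deposited table reached a normalised CPM of 1 in at least 6 libraries, and Greb1 did so in 8 of the 9 tamoxifen libraries and 0 of the 9 oil libraries. It is therefore in the table only through the group in which it was high, and a gene kept in that way had to differ. The other 7 genes reached 1 in all 9 tamoxifen libraries, and in all 9 oil libraries except for Pgr, which did so in 5. In MPPs it stood at 2.94, 6.24 and 6.70 normalised CPM in the tamoxifen libraries, against 0.135, 0.716 and 0.660 in the oil libraries. The lowest tamoxifen library was above the highest oil library. The 64 against 4 reads gave a ratio of 13.7 between the scaled read sums (95% exact interval 5.09 to 51.7, which covers counting error only). In ST cells the values were 3.85, 2.43 and 4.75 normalised CPM in the tamoxifen libraries, and no read was found in the 3 oil libraries. Set against 3 reads for the oil group as a whole, used as a floor, the 40 tamoxifen reads correspond to a level 11.3-fold higher. This value leaves out the counting error of the tamoxifen reads and is no lower bound. In LT cells the tamoxifen libraries stood at 1.34, 1.85 and 0.752 normalised CPM on 12 reads, again with no read in the oil libraries. That is 4.75-fold higher over the same floor, again without the counting error of the tamoxifen reads. GENCODE vM21 lists an antisense gene, Gm48140, and a miRNA gene, Gm44305, within Greb1, neither with a row in the table, and without the strand setting of the counting, antisense reads cannot be told apart from those of Greb1.

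**Figure D1:**
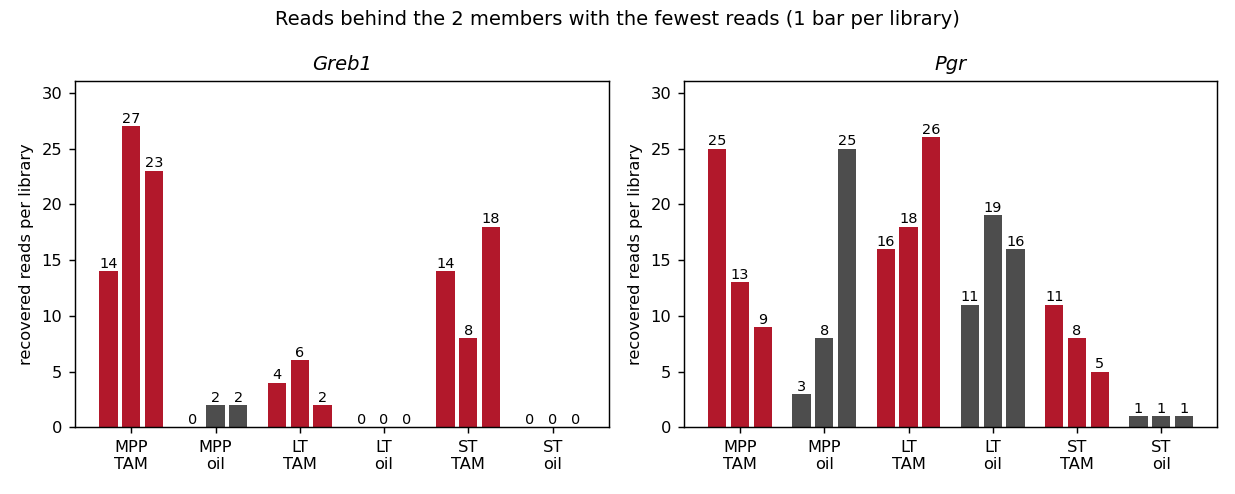
Recovered reads of Greb1 and Pgr in each of the 18 libraries, 1 bar per library, in red for tamoxifen (TAM) and grey for oil. Each tamoxifen library had 2 or more Greb1 reads, and the LT and ST oil libraries had none.

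The change of Greb1 was tested with limma on log2(value + 1), in 1 fit over all libraries and genes, with Benjamini-Hochberg adjustment over 14419 genes and a threshold of 0.05. Greb1 is in the table only through its tamoxifen libraries. The p-values and alternatives below therefore describe its values and are no support for a change. The log2 fold change was 2.03 in MPPs (SE 0.355, 95% interval 1.30 to 2.76, adjusted p = 0.0305). It was 1.98 in ST cells (SE 0.355, 95% interval 1.25 to 2.71, adjusted p = 0.00105). In LT cells it was 1.01 (SE 0.355, 95% interval 0.283 to 1.74) and did not pass the adjustment (adjusted p = 0.179, and 0.305 without library A). Averaged over the 3 populations it was 1.67 (SE 0.205, adjusted p = 2.06e-05). With oil groups at or near 0 reads these fold changes depend on the added 1 and are no lower bounds. The call in ST cells held under all 29 alternatives that measured Greb1, at adjusted p between 0.000455 and 0.011. The call in MPPs was lost with a pseudocount of 0.1 (adjusted p = 0.073), with edgeR's quasi-likelihood test on the recovered reads (adjusted p = 0.137), and when oil library 1, oil library 2, tamoxifen library 2 or tamoxifen library 3 was left out (adjusted p = 0.162, 0.111, 0.159 and 0.103).

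Esr1, the gene of the receptor itself, was lower in tamoxifen libraries, and passed the test in ST cells and in the mean of the populations. In ST cells it stood at 24.6, 21.0 and 7.58 normalised CPM in the tamoxifen libraries, against 31.4, 31.6 and 47.1 in the oil libraries. In LT cells the tamoxifen libraries had 20.4, 28.7 and 19.7 normalised CPM, against 39.1, 38.4 and 43.9 in the oil libraries. In MPPs they had 49.8, 62.3 and 64.0 normalised CPM, against 80.9, 87.5 and 66.9. Each tamoxifen library lay below every oil library of its own population, with the narrowest gap in MPPs, between 64.0 and 66.9. The groups averaged 17.7 ± 8.96 normalised CPM in ST cells given tamoxifen and 36.7 ± 8.96 in ST cells given oil (SD, n = 3 each). They averaged 22.9 ± 5.00 in LT cells given tamoxifen and 40.4 ± 3.00 in LT cells given oil, and 58.7 ± 7.73 in MPPs given tamoxifen and 78.5 ± 10.5 in MPPs given oil.

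Esr1 fell in ST cells (log2 fold change -1.13, SE 0.283, 95% interval -1.72 to -0.545, adjusted p = 0.0149, limma). In LT cells the log2 fold change was -0.81 (95% interval -1.40 to -0.222, adjusted p = 0.186, and 0.413 without library A), and in MPPs -0.41 (95% interval -1 to 0.176, adjusted p = 0.936), neither past the threshold. The mean over the populations was -0.79 (SE 0.163, adjusted p = 0.00464, limma), and this call held under all 29 alternatives, at adjusted p between 5.25e-05 and 0.0287. None of these linked LT and ST libraries of the same letter for the mean. The call in ST cells rested partly on tamoxifen library C and oil library C, the lowest and the highest Esr1 values of their groups: without the first the log2 fold change was -0.64 (adjusted p = 0.0743), and without the second -0.95 (adjusted p = 0.0566). A lower level in sorted bulk cells can mean less RNA per cell or fewer cells that carry it, and these cannot be told apart here.

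**Figure D2:**
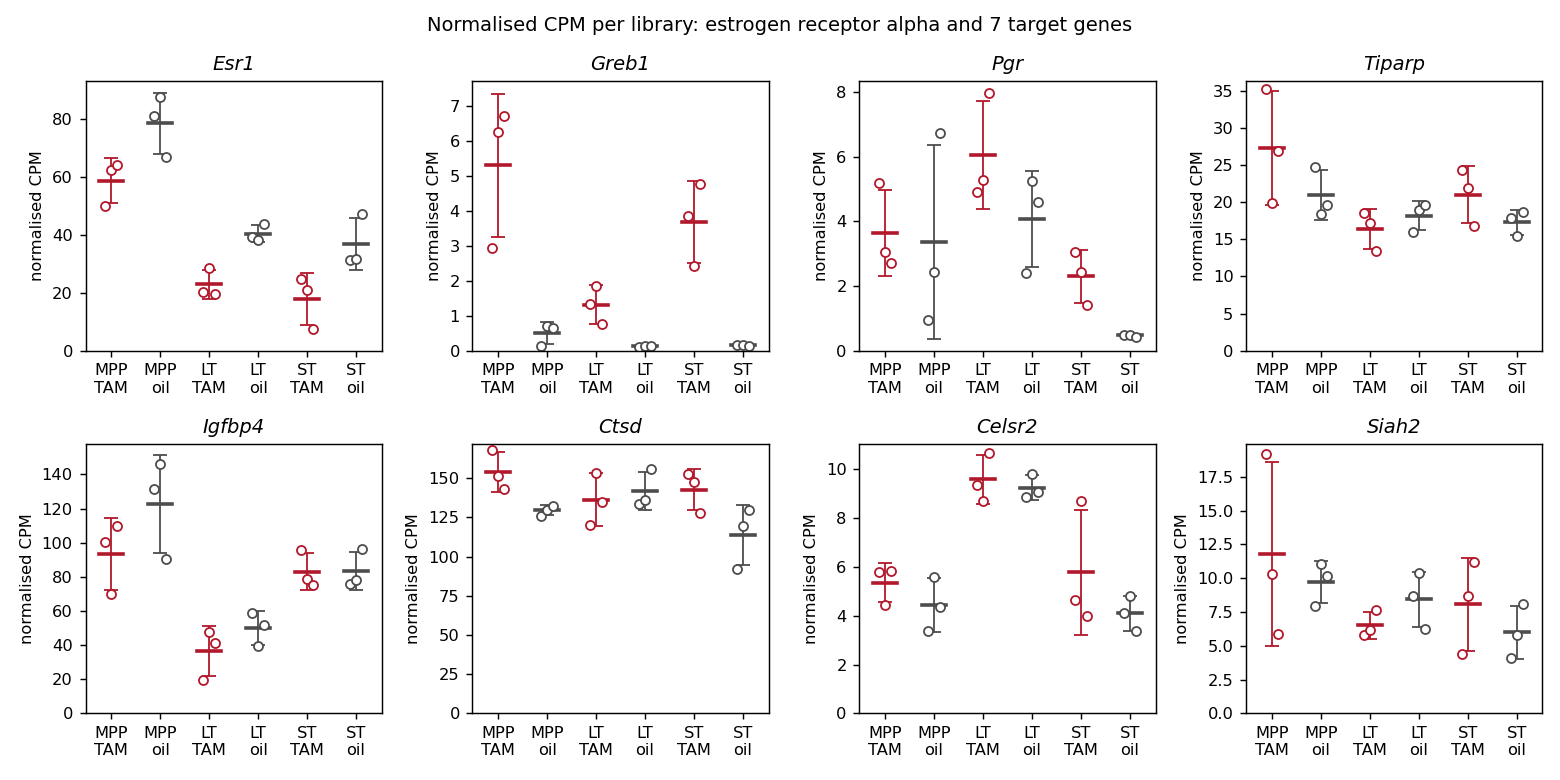
Normalised CPM of the 8 genes in each library (points), with group mean (bar) and SD (whisker), tamoxifen (TAM) in red to the left of oil in grey. Greb1 in the tamoxifen libraries lay above, and Esr1 below, every oil library of the same population.

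Pgr, which encodes the progesterone receptor and is a textbook estrogen-induced gene of uterus and breast, showed its widest difference in ST cells. There it had 11, 8 and 5 reads in the tamoxifen libraries (3.06, 2.43 and 1.41 normalised CPM), against 1 read in each oil library (0.494, 0.497 and 0.440 normalised CPM). The groups did not overlap, and the ratio of the scaled read sums was 6.79 (95% exact interval 2.06 to 35.2, counting error only). The log2 fold change of 1.13 (SE 0.406, 95% interval 0.296 to 1.96) missed the threshold (adjusted p = 0.0754, limma). It passed with a pseudocount of 0.1 (adjusted p = 0.0274) and without MPP oil library 3 (adjusted p = 0.0484). In LT cells the values were 4.91, 5.28 and 7.97 normalised CPM in the tamoxifen libraries and 2.40, 5.25 and 4.60 in the oil libraries, which overlapped (log2 fold change 0.50, 95% interval -0.336 to 1.33, adjusted p = 0.642). In MPPs the tamoxifen libraries had 5.18, 3.06 and 2.71 normalised CPM and the oil libraries 0.946, 2.43 and 6.73, with an oil library at either end of the range. The mean change over the populations was 0.64 (95% interval 0.155 to 1.12, adjusted p = 0.0878, limma).

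Ctsd encodes cathepsin D, a lysosomal aspartic protease whose promoter is estrogen-responsive in human breast cancer cells. In MPPs its tamoxifen libraries, at 168, 151 and 143 normalised CPM, all lay above the oil libraries, at 126, 129.9 and 132. The log2 fold change there was 0.25 (95% interval -0.0279 to 0.524, adjusted p = 0.917). In ST cells the tamoxifen libraries had 153, 148 and 128 normalised CPM and the oil libraries 92.3, 119.8 and 129, so the groups overlapped in 1 library pair (log2 fold change 0.33, 95% interval 0.0579 to 0.61, adjusted p = 0.115). In LT cells Ctsd averaged 136 ± 16.9 normalised CPM with tamoxifen and 142 ± 12.4 with oil (SD, n = 3 each), and the log2 fold change of -0.06 (adjusted p = 0.886) was 0.024 without library A. GENCODE vM21 lists another protein-coding gene, Gm49369, that overlaps Ctsd on the same strand and had no row in the table, so some of its reads could be counted with Ctsd.

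Igfbp4 encodes a secreted protein that binds insulin-like growth factors and is estrogen-induced in breast cancer cells. It did not pass the test in any tamoxifen comparison. In LT cells it stood at 19.8, 47.8 and 41.3 normalised CPM in the tamoxifen libraries, against 58.7, 39.4 and 51.9 in the oil libraries. The lowest of these was library A, and the log2 fold change of -0.52 (adjusted p = 0.409) was -0.15 without it. In MPPs the tamoxifen libraries had 100.2, 69.98 and 109.9 normalised CPM and the oil libraries 131, 146 and 90.7. In ST cells the means were 83.1 ± 11.1 with tamoxifen and 83.2 ± 11.2 with oil (SD, n = 3 each), with a 95% interval of the log2 fold change from -0.561 to 0.558.

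Tiparp encodes a mono-ADP-ribosyltransferase induced by both estrogen and the aryl hydrocarbon receptor. It averaged 27.3 ± 7.70 normalised CPM in MPPs given tamoxifen and 21.0 ± 3.32 in MPPs given oil, 16.4 ± 2.71 in LT cells given tamoxifen and 18.2 ± 1.97 in LT cells given oil, and 21.0 ± 3.82 in ST cells given tamoxifen and 17.3 ± 1.69 in ST cells given oil (SD, n = 3 each). The groups overlapped in each population, and the log2 fold changes were 0.34, -0.15 and 0.25 in MPPs, LT and ST cells. The transcribed pseudogene 4931440P22Rik overlaps Tiparp on the opposite strand. The sources used here do not give the strand setting of the counting, so their reads cannot be told apart.

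Celsr2, a cadherin of the planar cell polarity system, and Siah2, a RING-type ubiquitin ligase, are estrogen-induced in human breast cancer cells, and neither passed in a tamoxifen comparison. Celsr2 averaged 5.35 ± 0.805 normalised CPM in MPPs given tamoxifen and 4.44 ± 1.11 in MPPs given oil, and 9.58 ± 1.00 in LT cells given tamoxifen and 9.25 ± 0.512 in LT cells given oil. In ST cells its tamoxifen libraries had 4.65, 8.71 and 3.98 normalised CPM, of which B was above the rest, and the oil libraries 4.11, 4.80 and 3.37. Siah2 in MPPs ranged widely, at 19.2, 10.3 and 5.85 normalised CPM in the tamoxifen libraries and 7.97, 11.0 and 10.2 in the oil libraries, and its 95% interval of the log2 fold change ran from -0.595 to 0.846. In LT cells Siah2 averaged 6.53 ± 0.996 normalised CPM with tamoxifen and 8.43 ± 2.06 with oil, and in ST cells 8.09 ± 3.44 with tamoxifen and 5.99 ± 1.98 with oil (SD, n = 3 each).

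**Figure D3:**
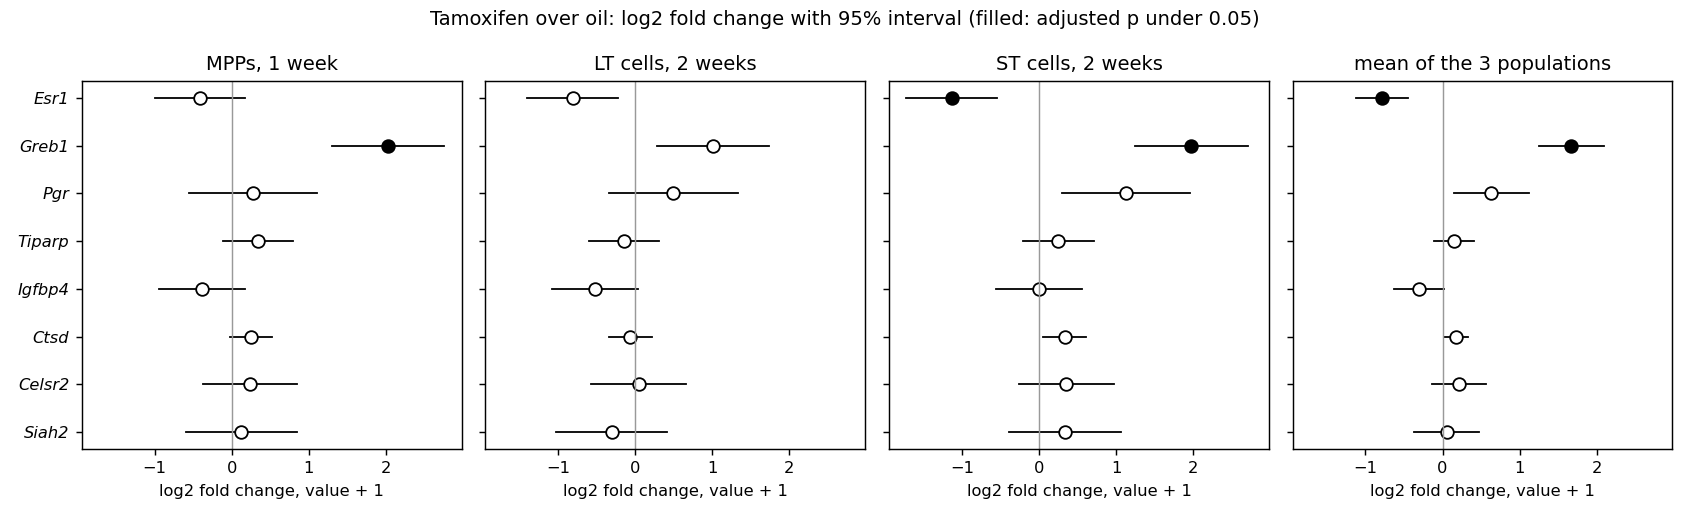
Log2 fold change of normalised CPM + 1, tamoxifen over oil, with 95% interval from limma, for the 8 genes in each population and averaged over the 3. Filled points passed an adjusted p of 0.05: Greb1 in MPPs, ST cells and the mean, and Esr1 in ST cells and the mean.

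Counted over the 8 genes, 1 rose and 0 fell in MPPs, where 0.0555% of all genes tested passed. In LT cells 0 of the 8 passed with limma, edgeR or DESeq2, and 0.416% of all genes did with limma. At an unadjusted limma p under 0.05 it was 2 of the 8, Esr1 and Greb1, and 1952 of all 14419 genes. Without library A of the LT tamoxifen group, 0 of the 8 passed as well (limma). In ST cells 1 rose and 1 fell, where 9.61% of all genes passed, and for the mean effect 1 rose and 1 fell, where 8.88% did. The median log2 fold change of the 8 genes was 0.24 in MPPs, -0.105 in LT cells and 0.34 in ST cells, beside -0.00014, -0.0153 and 0.0059 for all genes. Greb1, whose fitted value depends on the added 1, lay above these medians on any scale. The size of that value does not move them, but counting Greb1 does. Among the members without Greb1 the middle value was 0.235 in MPPs, -0.147 in LT cells and 0.334 in ST cells. Groups that do not overlap were found for 3 of the 8 genes in MPPs (Greb1 and Ctsd higher, Esr1 lower), against 14.9% of all genes, for 2 in LT cells (Greb1 higher, Esr1 lower), against 18.4%, and for 3 in ST cells (Greb1 and Pgr higher, Esr1 lower), against 27%. Without overlap and in 1 direction in all 3 populations, there were 150 genes, 82 higher and 68 lower, or 1.04% of the table. Greb1 was among the higher and Esr1 among the lower. Since Greb1 is in the table only through its tamoxifen libraries, its part in these counts is no support for a change.

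Whether the tamoxifen effect differed between populations was tested directly, and none of the 8 genes passed with limma, edgeR or DESeq2. The limma share of all genes passing was 0.0555% for ST minus LT, 0% for MPP minus LT and 0.00694% for MPP minus ST, and at an unadjusted p under 0.05 it was 1, 0 and 0 of the 8 genes. In the same order, 1860, 808 and 1742 of the 14419 genes of the table had an unadjusted limma p under 0.05. For MPP minus LT, DESeq2 called 11 genes and edgeR 0. For Greb1 the difference of log2 fold changes was 0.97 for ST minus LT (95% interval -0.0613 to 2.00, adjusted p = 0.414) and 1.02 for MPP minus LT (95% interval -0.0127 to 2.05, adjusted p = 0.867), and for MPP minus LT it was -1.47 with edgeR and -0.88 with DESeq2. For Esr1 it was -0.32 for ST minus LT (95% interval -1.15 to 0.509, adjusted p = 0.782, and 0.17 without ST tamoxifen library C) and 0.72 for MPP minus ST (95% interval -0.111 to 1.55, adjusted p = 0.491). These intervals are wide, so the pass of Greb1 and Esr1 in ST cells and not in LT cells does not show that the populations differed.

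Markers of the sorted populations and of other cells moved in some of the same comparisons. Beside the counts below, the share of all genes past the limma threshold was 0.0555% in MPPs, 0.416% in LT cells, 9.61% in ST cells and 8.88% in the mean. In ST cells 2 of the 12 long-term stem cell markers rose, Mecom and Ctnnal1 (log2 fold changes 0.74 and 0.86, adjusted p = 0.00746 and 0.0143, limma), and in LT cells 1 fell, Kit (-0.55, adjusted p = 0.0159). Kit is also on the multipotent progenitor list. In LT cells Kit and Hlf carried much of the long-term sum, and 4 of the 12 markers had a log2 fold change above 0. In ST cells 5 of 15 erythroblast markers rose, among them Klf1, the erythroid transcription factor (log2 fold change 1.33, adjusted p = 0.031, limma), and the list summed to 817 to 1003 normalised CPM with tamoxifen and 607 to 805 with oil. In MPPs Ank1 and Ermap rose (log2 fold changes 1.95 and 2.07, adjusted p = 0.0351 and 0.0491, limma), while edgeR called 0 of the 15 and DESeq2 2. The list summed to 440.2 to 1161 with tamoxifen and 485 to 598 with oil in MPPs. There 14 of the 15 markers had a log2 fold change above 0 (median 0.87). Of the 15, 6 had an unadjusted limma p under 0.05, beside 819 of all 14419 genes. In the mean over populations 5 of the 15 rose (limma), and 15 had a log2 fold change above 0 (median 0.43). In LT cells, where Esr1 had its -0.81, the 10 multipotent progenitor markers summed to 849 to 1081 normalised CPM with tamoxifen and 1475 to 1763 with oil, and 4 of them fell, among them Kit again, and Dntt (log2 fold change -2.65, adjusted p = 0.0324, limma). Kit alone averaged 741 normalised CPM with tamoxifen and 1086 with oil, a large part of these sums. Of the 10 markers, 0 had a log2 fold change above 0, and the median was -1.26. In the mean over populations 7 of the 10 fell (limma), 0 had a log2 fold change above 0, and the median was -0.735. In MPPs 0 of the 10 passed with limma, 1 had a log2 fold change above 0, and the median was -0.433. In ST cells, where Esr1 fell, the same list summed to 3284 to 3637 with tamoxifen and 2430 to 3060 with oil, but 3 of the 10 markers had a log2 fold change above 0, the median was -0.46, 0 rose, and Satb1, a chromatin organiser of lymphoid cells, fell (log2 fold change -0.84, adjusted p = 0.0443, limma). The 10 stroma and endothelium markers summed to 203 to 210 normalised CPM with tamoxifen and 169.5 to 204 with oil in ST cells, 115 to 143 with tamoxifen and 149.7 to 188 with oil in LT cells, and 181 to 261 with tamoxifen and 245 to 255 with oil in MPPs. Of these 10, Pdgfrb, a receptor of perivascular cells, fell in all 3 populations (log2 fold changes -1.81, -2.06 and -1.35 in that order). In ST cells 2 others rose, the angiopoietin receptor gene Tek (log2 fold change 0.81, adjusted p = 0.0208, limma) and Vcam1, an adhesion molecule also on the macrophage list (1.19, adjusted p = 0.0238), and 7 of the 10 had a log2 fold change above 0. In the mean over populations Tek and the collagen gene Col1a2 rose (log2 fold changes 0.44 and 0.98, adjusted p = 0.0302 and 0.00703, limma). The 12 macrophage and monocyte markers summed to 629 to 743 with tamoxifen and 525 to 715 with oil in ST cells, where Vcam1 was the 1 that rose. None of the neutrophil, B cell, or T and NK cell markers passed in a tamoxifen comparison with limma, edgeR or DESeq2, and at an unadjusted p under 0.05 it was at most 2 of a list in 1 population. In LT cells 0 of 11 neutrophil, 1 of 8 B cell and 1 of 6 T and NK cell markers had a log2 fold change above 0 (medians -0.83, -0.535 and -0.475). The neutrophil list there summed to 21.3 to 39.5 normalised CPM with tamoxifen and 38.6 to 94.6 with oil. Of these 11, 9 lay above 0 in MPPs and 7 in ST cells. No marker of these lists was at 0 reads in any group. The part of these cells in the values of Greb1, Esr1 and Pgr was not tested.

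In oil-treated cells the levels of Esr1 ran highest in MPPs (78.5 normalised CPM), then LT cells (40.4) and ST cells (36.7). MPPs exceeded ST cells (log2 fold change 1.09, SE 0.283, adjusted p = 0.00566, limma) and LT cells (0.93, SE 0.283, adjusted p = 0.028), and the call against LT cells was lost without the trend and robust settings (adjusted p = 0.0623) and when any 1 of 5 of the 6 libraries was left out (all but MPP oil library 3), at adjusted p between 0.0533 and 0.105. ST and LT cells did not differ beyond their spread (log2 fold change -0.16, 95% interval -0.747 to 0.429). Igfbp4 was also highest in MPPs (123 ± 28.7 normalised CPM), then ST cells (83.2 ± 11.2) and LT cells (50.02 ± 9.76; SD, n = 3 each). It was higher in MPPs than in LT cells (log2 fold change 1.27, adjusted p = 0.00248, limma), and higher in ST than in LT cells (0.73, adjusted p = 0.0471), a call lost in 12 of 30 alternatives, at adjusted p up to 0.172. MPPs and ST cells did not differ past the threshold (log2 fold change 0.54, 95% interval -0.0249 to 1.09). This comparison of Igfbp4 passed with only the groups compared (adjusted p = 0.0168, limma) and without LT tamoxifen library A (adjusted p = 0.0233, limma).

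Pgr and Celsr2 stood highest in LT cells. Pgr stood at 0.494, 0.497 and 0.440 normalised CPM in ST oil libraries, against 2.40, 5.25 and 4.60 in LT oil libraries (log2 fold change -1.74, SE 0.406, adjusted p = 0.00188, limma), a call that held under all 29 alternatives that measured Pgr. MPPs, at 0.946, 2.43 and 6.73 normalised CPM, exceeded ST cells (log2 fold change 1.33, adjusted p = 0.0133, limma), but not without MPP oil library 3 (adjusted p = 0.147), and MPPs and LT cells did not differ past the threshold (log2 fold change -0.40, 95% interval -1.23 to 0.431). Celsr2 averaged 4.10 ± 0.717 normalised CPM in ST cells and 9.25 ± 0.512 in LT cells (log2 fold change -1.02, adjusted p = 0.0113, limma). In MPPs it averaged 4.44 ± 1.11 normalised CPM, also below LT cells (log2 fold change -0.93, adjusted p = 0.0326, limma), a call that was lost with quantile normalisation (adjusted p = 0.0841) and when any 1 of 5 of the 6 libraries was left out (all but MPP oil library 2, adjusted p between 0.073 and 0.149). For MPPs over ST cells the log2 fold change of Celsr2 was 0.08 (95% interval -0.529 to 0.696). Ctsd, Tiparp and Siah2 passed in no comparison of oil-treated populations, and Ctsd came nearest, with a log2 fold change of -0.33 for ST over LT cells (adjusted p = 0.0705, limma). It passed without LT tamoxifen library A (adjusted p = 0.0367) and without ST oil library C (log2 fold change -0.43, adjusted p = 0.031). Greb1, with 0 to 4 reads per oil group, is given no fold change.

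**Figure D4:**
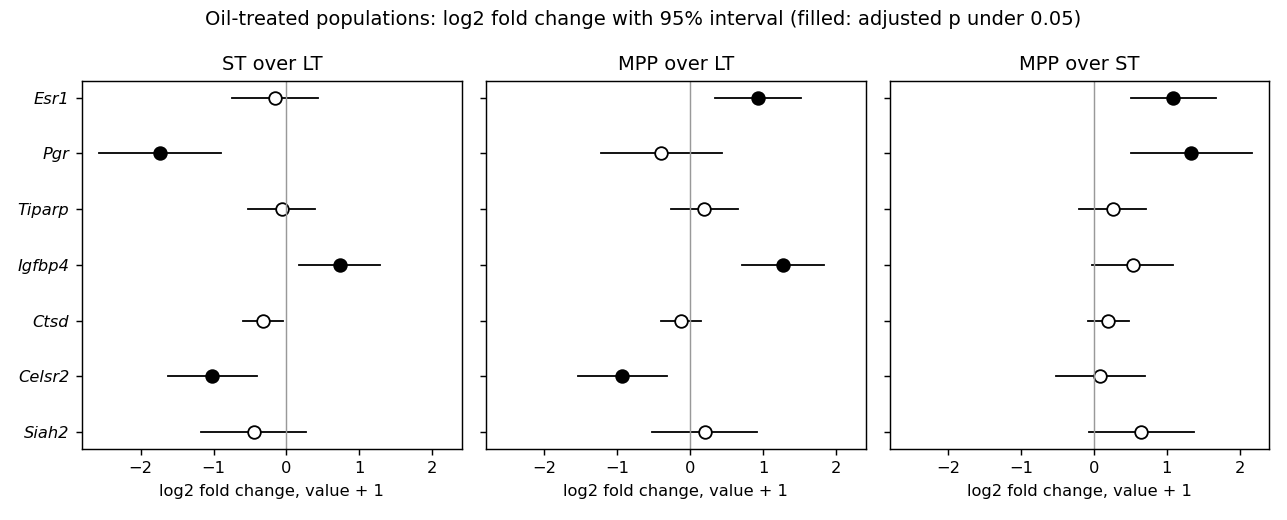
Log2 fold change of normalised CPM + 1 between oil-treated populations, with 95% interval from limma, for ST over LT, MPP over LT and MPP over ST cells, without Greb1. Filled points passed an adjusted p of 0.05: Pgr, Igfbp4 and Celsr2 for ST over LT, Esr1, Igfbp4 and Celsr2 for MPP over LT, and Esr1 and Pgr for MPP over ST.

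Of the 8 genes, 1 was higher and 2 lower in ST than in LT cells, where 28.5% of all genes passed. In MPPs, 2 were higher and 1 lower than in LT cells, where 14.8% of all genes passed, and 2 were higher and 0 lower than in ST cells, where 30.7% did. The count of the 8 genes in the comparisons with ST cells is therefore near the share of the whole table.

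Other genes of estrogen action were read from lists of the receptor family, of further estrogen-induced genes, and of the genes around the 8. Of 13 steroid and estrogen-related receptors, 8 were measured, and within single populations limma called Esr1 in ST cells and nothing else, while edgeR and DESeq2 each called 2 of them there. In MPPs and LT cells edgeR and DESeq2 also called 0 of them. The unadjusted limma p was under 0.05 for 0 in MPPs, 4 in LT cells and 4 in ST cells. Pgrmc2, a membrane-associated progesterone receptor component, rose in the mean over populations (log2 fold change 0.41, adjusted p = 0.0244, limma). Of 51 further estrogen-induced genes, 30 were measured. In MPPs 0 passed with limma, edgeR or DESeq2, and 0 had an unadjusted p under 0.05. In LT cells 0 passed with limma or edgeR and 2 with DESeq2. The unadjusted limma p was under 0.05 for 7 of the 30 in LT cells, 13 in ST cells and 13 in the mean over populations. Of the 14419 genes of the table it was so for 819 in MPPs, 1952 in LT cells, 3614 in ST cells and 3469 in the mean. In ST cells 3 of the 30 rose, near the 9.61% of all genes tested that passed there in either direction (edgeR called 3 and DESeq2 5). Among them were Ccnd1, the cyclin D1 gene, at 37.5 ± 1.39 normalised CPM with tamoxifen and 20.3 ± 0.923 with oil, and Fkbp4, a co-chaperone of steroid receptors, at 293 ± 51.5 with tamoxifen and 199 ± 35.2 with oil (SD, n = 3 each). The adjusted p was 0.0109 for Ccnd1 and 0.0347 for Fkbp4 (limma). Ccnd1 in MPPs averaged 42.6 ± 6.48 normalised CPM with tamoxifen and 48.5 ± 16.2 with oil. In the mean over populations, where 8.88% of all genes passed, 3 of the 30 rose and 1 fell. Among them, Myc rose by a log2 fold change of 0.46 (adjusted p = 0.013, limma) and Xbp1, a factor of the unfolded protein response, by 0.31 (adjusted p = 0.0245). The gene that fell was Nrip1, a corepressor that binds the liganded receptor (log2 fold change -0.27, adjusted p = 0.0112, limma). The median log2 fold change of the 30 genes was -0.0086 in MPPs, -0.20 in LT cells and 0.30 in ST cells. Of 15 genes of the uterine estrogen response 10 were measured, and Mad2l1, a spindle checkpoint gene, passed in the mean (log2 fold change 0.29, adjusted p = 0.0437, limma).

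Genes related to single members showed calls mainly in ST cells, the population with the most calls in the whole table, 9.61% of all genes tested in either direction, against which the counts of these short lists are to be read. Of 6 measured genes of the aryl hydrocarbon receptor battery, which shares Tiparp, Ahr itself rose, at 13.1 ± 2.28 normalised CPM with tamoxifen and 5.70 ± 1.37 with oil (log2 fold change 1.09, adjusted p = 0.00664, limma). Of 28 measured lysosomal genes, the group of Ctsd, 4 rose in ST cells, led by Gla, the alpha-galactosidase gene, at 18.5 ± 1.47 normalised CPM with tamoxifen and 7.55 ± 1.79 with oil (adjusted p = 0.00531, limma). Tpp1, a lysosomal peptidase, and Grn, the progranulin gene, followed with log2 fold changes of 0.62 and 0.57. DESeq2 also called 4 of the 28 in ST cells, and edgeR 2. Of 10 measured genes of the insulin-like growth factor axis, the group of Igfbp4, Igf2r, the receptor that clears IGF2, rose in ST cells at 24.2 ± 5.57 normalised CPM with tamoxifen and 10.4 ± 3.84 with oil (log2 fold change 1.18, adjusted p = 0.00277, limma). Of 7 measured genes of estrogen synthesis and metabolism, Hsd17b4, which oxidises estradiol and takes part in peroxisomal fat oxidation, and Hsd17b12, a fatty acid elongation enzyme, rose in ST cells (log2 fold changes 0.73 and 0.59, adjusted p = 0.0115 and 0.0459, limma; edgeR called 1 of the 7 and DESeq2 2). Of 12 measured paralogs of the 8 genes, Celsr1, the paralog of Celsr2, and Zc3hav1, an antiviral relative of Tiparp, rose in ST cells (log2 fold changes 0.74 and 0.44, adjusted p = 0.0423 and 0.0308, limma). Celsr2 in the same comparison had a log2 fold change of 0.36 (95% interval -0.254 to 0.971). In MPPs and LT cells no gene of these 5 lists passed with limma or edgeR, and DESeq2 called 1 lysosomal gene in LT cells. The unadjusted limma p there was under 0.05 for at most 2 genes of a list, except for 6 lysosomal genes in LT cells. In ST cells it was under 0.05 for 10 lysosomal genes, 5 paralogs and 3 genes of estrogen synthesis and metabolism, and for 1 gene of each other list. Means with ± are over 3 libraries (SD).

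The genes whose levels ran most like each of the 8 were found by Pearson's r of log2(value + 1) over the 18 libraries, among 7209 genes above the median level. The libraries share populations, treatment and depth, so r is a description. Esr1 was closest to Rnf150 (r = 0.94), Slc43a2 (0.93) and Mylip (0.92), and Igfbp4 to Fam117a, Tmem180 and Cd37 (0.94 each). Greb1 was closest to Tex2 (r = 0.85), Ncbp1 (0.84) and Ccna2, the cyclin A2 gene (0.81). Pgr was closest to Usp7 (r = 0.90), Mtor (0.86) and BC046331 (0.86), and Celsr2 to Ept1 (0.89), Anxa7 (0.88) and Itga5 (0.88). Ctsd was closest to Txndc5 (r = 0.86), Eif4b (0.81) and Lamp1 (0.80), the last another lysosomal gene. Siah2 was closest to Ptp4a1 (r = 0.79), Kbtbd2 (0.79) and Klf10 (0.78), and Tiparp to Tmem194b (0.78), Atg7 (0.73) and 2400001E08Rik (0.72).

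**Figure D5:**
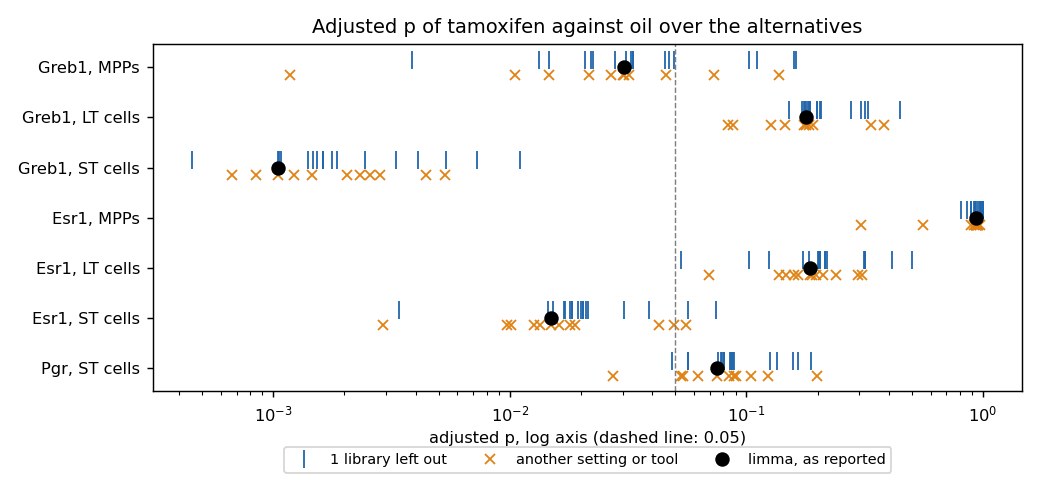
Adjusted p of tamoxifen against oil on a log axis for Greb1, Esr1 and Pgr, as reported by limma (black), with 1 library left out (ticks) and under another setting or tool (crosses), with a dashed line at 0.05. Greb1 in ST cells stayed below the line throughout, while Greb1 in MPPs, Esr1 in ST cells and Pgr in ST cells have values on both sides.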

How the data were processed

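RNA was extracted with the Picopure kit, then made into amplified cDNA (Ovation RNA-Seq System V2), sonicated and ligated to adaptors, per the labels' protocols. The submitters' processing notes name limma, RSEM 1.17, cutadapt, Picard and the NCBIM37 build. The sources used here do not give the annotation, strand setting or scaling. The 1 deposited table was read as a normalised signal of the form of CPM: in each library 100% of values were whole reads plus 0.5 times a constant, within 0.001 read. RSEM gives fractional estimates, so the recovered reads may be rounded.

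All 18 libraries entered 1 limma 3.58.1 fit (R 4.3.3, trend and robust with statmod 1.5.0) of log2(value + 1) with a mean for each group and 12 residual degrees of freedom. Fold changes on this scale understate changes of low genes. P-values were adjusted over 14419 genes by Benjamini-Hochberg, and no gene was lost to a minimum value of 1 in 3 libraries. Exact tests over 3 against 3 libraries cannot go below p = 0.1, so none was used. Read ratios carry exact 95% intervals that assume the recovered reads are counts and cover counting error only, since the cDNA was amplified. The floor was 3 reads per group. The p-values measure the spread between libraries, and whether each came from its own mouse is not given.

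The members and gene lists were chosen with earlier results of these data known, and the lists were written from general knowledge. Named beside the members were, from each list, up to 3 called genes per tamoxifen comparison, those of smallest p, and the 3 genes most correlated with each member. One gene that this rule names is not reported here. Alternatives were pseudocounts of 0.1 and 5, a mean value of at least 5, no filter, quantile and TMM scaling, only the groups compared, a replicate block, no trend or robust setting, library weights, edgeR 4.0.16, DESeq2 1.42.0, and each library left out. Scripts were tested on simulated data. Promoter windows came from RefSeq (GRCm38.p6), overlapping genes from GENCODE vM21, and no coordinates were converted.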

Additional observations from a re-analysis of the deposited data

How the results depend on the processing

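The depth of 2728800 to 5279821 reads per library leaves Greb1 and Pgr on a few reads each, so their fold changes move with the added constant, and a mean value of at least 5 removes both. Numbers of the 8 genes past the threshold moved as follows. Higher in MPPs given tamoxifen (1) became 0 with a pseudocount of 0.1, a mean value of at least 5 and edgeR, and 0 to 1 with 1 library left out. Higher in ST cells given tamoxifen (1) became 2 with a pseudocount of 0.1, 0 with a mean value of at least 5, and 1 to 2 with 1 library left out. Lower in ST cells given tamoxifen (1) became 0 with the replicate block, where Esr1 had an adjusted p of 0.0554 (limma), and 0 to 1 with 1 library left out. Higher in the mean over populations (1) became 0 with a mean value of at least 5, 2 with library weights, and 1 to 2 with 1 library left out. In oil, higher in ST than LT cells (1) became 0 with a pseudocount of 0.1 or without the trend and robust settings, and 0 to 1 with 1 library left out. Lower in ST than LT cells (2) became 1 with a mean value of at least 5, and 2 to 3 with 1 library left out. Higher in MPPs than LT cells (2) became 1 without the trend and robust settings, and 1 to 2 with 1 library left out, and lower (1) became 0 with quantile normalisation, and 0 to 1 with 1 library left out. Higher in MPPs than ST cells (2) became 1 with a mean value of at least 5, and 1 to 3 with 1 library left out.

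Log2 fold changes changed sign only in comparisons in which the gene had not passed the threshold. They were Ctsd in LT cells with library weights (0.022), Ctsd for MPP over ST in oil with quantile normalisation (-0.028), and the difference of Greb1 effects, which was -1.47 with edgeR and -0.88 with DESeq2 for MPP minus LT. For MPP minus ST the Greb1 difference was -0.55 with a pseudocount of 0.1, -0.0022 with quantile normalisation, -3.02 with edgeR and -2.10 with DESeq2. With 1 library left out, the tamoxifen effect ranged from -0.19 to 0.81 for Pgr and -0.27 to 0.51 for Siah2 in MPPs, -0.15 to 0.024 for Ctsd and -0.0295 to 0.10 for Celsr2 in LT cells, -0.11 to 0.11 for Igfbp4 in ST cells, and -0.081 to 0.18 for Siah2 in the mean. The difference of effects ranged from -0.62 to 0.17 for Esr1 (ST minus LT), -0.68 to 0.32 for Pgr (MPP minus LT) and -0.16 to 0.36 for Greb1 (MPP minus ST). In oil the range was -0.15 to 0.0118 for Tiparp (ST over LT), -0.93 to 0.0681 for Pgr (MPP over LT) and -0.0642 to 0.23 for Celsr2 (MPP over ST). The cause of these shifts was not tested.

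The number of genes past the threshold in the whole table ranged from 0 to 67 in MPPs, 3 to 330 in LT cells, 654 to 2121 in ST cells, and 789 to 1922 for the mean over these settings. The differences of effects gave 0 to 125 genes for ST minus LT, 0 to 11 for MPP minus LT and 0 to 164 for MPP minus ST. In oil the numbers ran from 3158 to 4822 for ST over LT, 1467 to 3568 for MPP over LT, and 3358 to 5092 for MPP over ST.

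Libraries with the same number or letter deviated together weakly, with correlations from -0.061 to 0.216 over the 9 tamoxifen and oil pairs and 0.054 to 0.149 over the 6 ST and LT pairs. The numbers and letters were not taken to pair the samples, but correlations of this size cannot settle whether LT and ST libraries of a letter share mice. Apart from the replicate block for ST over LT in oil, no setting linked them. The mean effect and the difference ST minus LT treat them as independent. Each ST library correlated best with the library of its own letter among the 3 LT libraries of its treatment, which is a hint from the data and not the design. With the replicate block the table had 12 calls in MPPs, 75 in LT cells and 1367 in ST cells.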
